A study of Homo sapiens with 4 samples.

Results

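Lowering IRF2BP2 in SK-N-BE(2) neuroblastoma cells was examined in 10 genes that switch on with ERK signalling and restrain or relay it: the Sprouty genes SPRY1, SPRY2 and SPRY4, the SPRED genes SPRED1 and SPRED2, the MAP kinase phosphatase genes DUSP4, DUSP5 and DUSP6, and the PEA3 transcription factor genes ETV4 and ETV5. They were chosen by symbol, with earlier results of these data known, and each of the 10 matched 1 of the 64252 rows of the gene count table. SK-N-BE(2) is an established human neuroblastoma line with amplified MYCN. There were 2 libraries from cells given an shRNA against IRF2BP2 and 2 libraries from cells given a scramble shRNA, and the labels name no further treatment or time. The labels name 1 shRNA against IRF2BP2 and do not say that the replicates are separate cultures, so the spread behind every p-value may be technical. The comparison asked how transcripts of the ERK feedback circuit stood in cells with less IRF2BP2, a nuclear co-regulator that binds IRF2.

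The ERK cascade carries signals from receptor tyrosine kinases through RAS, RAF and MEK to the ERK kinases. Active ERK turns on genes whose products dampen the same cascade. Sprouty proteins act between the receptor and RAF, SPRED proteins bring neurofibromin to RAS, and the dual-specificity phosphatases remove phosphate from ERK itself. ETV4 and ETV5 are ETS-family activators that are transcribed downstream of FGF and ERK signals, and the repressor CIC, which ERK inactivates, holds PEA3 genes and some feedback genes down when the pathway is quiet. In neuroblastoma the cascade is driven by ALK and other receptors and by RAS pathway mutations, and transcripts of these families are commonly read as a gauge of ERK output.

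Total counts lay between 30847699 and 34684651 per library. IRF2BP2 itself had 89.6 and 87.6 CPM (counts relative to the library total, scaled by TMM, the trimmed mean of M values) in IRF2BP2 shRNA libraries, against 243 and 238 CPM in scramble libraries (log2 fold change -1.44). Adrenergic neuroblastoma markers were present in every library, with a summed level of 8763 and 8881 CPM in IRF2BP2 shRNA libraries and 8375 and 8795 CPM in scramble libraries over 10 genes, most of it from MYCN. Of the 5 fibroblast markers, COL1A1, DCN, LUM and PDGFRB were detected in every library, and the list summed to 221 and 219 CPM in IRF2BP2 shRNA libraries and 300 and 286 CPM in scramble libraries. Its members went both ways, since COL1A1 rose by 2.17 and LUM, DCN and PDGFRB fell by 1.03, 1.30 and 0.36 on the log2 scale. The part of this list in the results below was not tested. Endothelial, immune, epithelial and Schwann cell marker lists of 5 genes each summed to between 1.99 and 6.97 CPM, and PECAM1, CD3E, LYZ, KRT5 and KRT14 had no count in any library. The share of mitochondrially encoded counts was 6.42% in each IRF2BP2 shRNA library, against 7.27% and 7.10% in scramble libraries. In RNA of whole cultures, fewer cells expressing a gene and less RNA per cell cannot be told apart.

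Promoter windows are shown for 4 members whose genes changed, and the window of DUSP6 also held letters that few windows hold. SPRED2, which was called lower with a log2 fold change of -0.17, also had windows, and these are not shown. All windows come from RefSeq on GRCh38.p14. Of the 10 members, 6 had a window, while DUSP4, DUSP5, ETV4 and ETV5 had none and were not searched. Each run is written 5′ to 3′ on the strand of its gene. Capitals mark CCGGAA, an ETS-type motif, in SPRY1 and SPRY2, and TCCATTGA, the reverse complement of the CIC-type octamer TCAATGGA, in DUSP6.
SPRY1 (chr4:123398136-123398385, plus strand): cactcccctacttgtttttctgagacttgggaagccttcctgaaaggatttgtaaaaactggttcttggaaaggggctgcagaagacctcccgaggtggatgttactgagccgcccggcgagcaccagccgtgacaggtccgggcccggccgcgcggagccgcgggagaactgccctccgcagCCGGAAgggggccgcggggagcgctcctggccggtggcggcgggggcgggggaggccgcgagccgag
SPRY2 (chr13:80341127-80341376, minus strand): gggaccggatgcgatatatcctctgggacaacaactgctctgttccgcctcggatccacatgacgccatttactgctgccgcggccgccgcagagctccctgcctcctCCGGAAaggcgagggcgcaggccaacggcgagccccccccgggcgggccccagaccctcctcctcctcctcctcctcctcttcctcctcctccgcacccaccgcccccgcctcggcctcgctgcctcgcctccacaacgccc
SPRY4 (chr5:142324248-142324497, minus strand): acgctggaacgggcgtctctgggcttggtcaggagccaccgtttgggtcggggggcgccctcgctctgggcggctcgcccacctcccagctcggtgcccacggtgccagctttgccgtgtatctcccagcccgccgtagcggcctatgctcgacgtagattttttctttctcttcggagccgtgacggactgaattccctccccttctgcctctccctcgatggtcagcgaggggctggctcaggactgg
DUSP6 (chr12:89352493-89352751, minus strand): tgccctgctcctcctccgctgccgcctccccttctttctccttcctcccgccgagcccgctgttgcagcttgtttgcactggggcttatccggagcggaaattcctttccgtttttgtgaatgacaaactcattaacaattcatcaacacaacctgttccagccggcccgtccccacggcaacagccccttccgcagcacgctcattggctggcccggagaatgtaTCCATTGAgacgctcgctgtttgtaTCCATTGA
SPRY1, SPRY2 and SPRY4 are given for the 250 bases before a transcript start, and DUSP6 for those and the 9 bases from its start. SPRY1 has 2 such windows and SPRY2 has 3, of which the one with CCGGAA is shown, and SPRY4 has 1. The windows shown for SPRY1, SPRY4 and DUSP6 lie inside the gene coordinates given below.

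Windows from 250 bases before to 50 bases after a start were searched on both strands. The CIC-type octamers TGAATGAA, TGAATGGA, TCAATGAA and TCAATGGA, counted together, were present in 3.77% of all 35116 windows and at 2 or more places in 0.328%. Among the 10 windows, which belong to 6 members and to neither PEA3 gene, DUSP6 alone held a match. It lay at bases -24 to -17 and at bases 2 to 9 counted from the start. Both were TCAATGGA, and they do not overlap. Taken alone, a search chosen after the matches were seen, this octamer was in 0.51% of all windows, and DUSP6 was the 1 window with 2 copies. CCGGAA was present in 17.2% of windows, and in 1 of the SPRY1 and 1 of the SPRY2 windows. The shorter ETS core GGAA, which CCGGAA contains, was in 95.5% of windows and in all 10 of the members' windows, with 3 to 6 matches each. TGACGTCA, the cAMP response element, was in 1.85% of windows and in none of the 10. TGANTCA, the AP-1 motif, was in 7.71% of windows and at 2 or more places in 0.515%. Among members, it was only in the window at the internal start of SPRED2, at 2 places. The SRF-type CArG box, searched in 1 spelling, was in 0.034% of windows and in none of the 10. These are matches of letters and no measure of binding.

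With IRF2BP2 lowered, the 10 feedback genes divided. SPRY1, SPRY2, SPRY4, DUSP5 and ETV4 rose, while DUSP6, ETV5 and SPRED2 fell, and SPRED1 and DUSP4 did not pass the test. The changes ran from 4.12-fold higher for SPRY1 to 1.84-fold lower for DUSP6. Of the 10 members, all of which passed the filter on low counts, 8 were called by edgeR's quasi-likelihood test at an adjusted p under 0.05, where 42% of the 19093 genes tested were called. The 5 higher stand beside 20.6% of all genes called higher and the 3 lower beside 21.4% called lower. Tested against a change of 1.5-fold instead of no change, 5 members were called, where 8.48% of all genes were. Of these, 4 members passed as higher (SPRY1, SPRY2, DUSP5 and ETV4), where 2.85% of all genes did, and DUSP6 passed as lower, where 5.63% of all genes did. The libraries of the groups did not overlap for 9 of the 10 members, as for 70.4% of all genes tested. The median log2 fold change was 0.36 over the members and -0.01 over all genes tested.

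**Figure D1:**
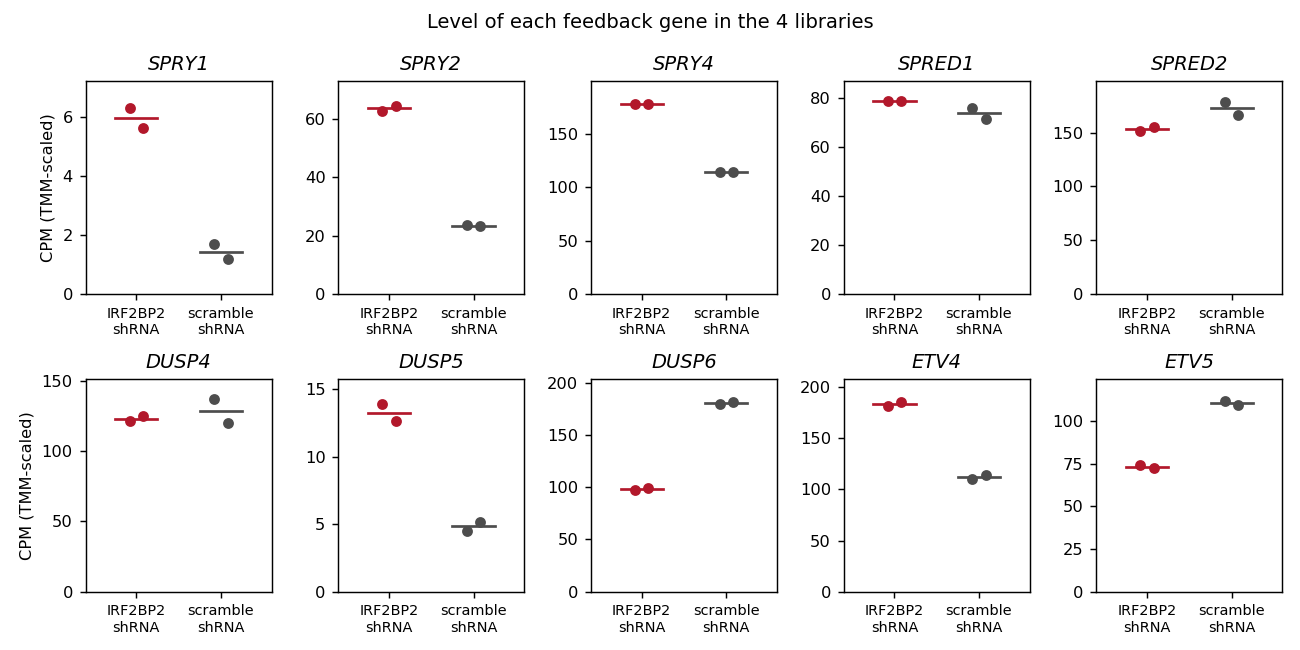
Level of each member in CPM (TMM-scaled, linear axes from 0) in the 2 IRF2BP2 shRNA libraries (red, left) and the 2 scramble libraries (grey, right), with points for libraries and lines for means. SPRY1, SPRY2, SPRY4, DUSP5 and ETV4 are higher and DUSP6 and ETV5 lower in both IRF2BP2 shRNA libraries, and the DUSP4 points overlap.

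SPRY1, SPRY2 and SPRY4 rose, and the rarer the transcript the larger the fold. SPRY3, the remaining Sprouty gene, had 0.88 and 0.47 CPM in IRF2BP2 shRNA libraries, against 0.55 and 0.91 CPM in scramble libraries, and was not called (edgeR adjusted p = 0.881). SPRY1, a Sprouty inhibitor of receptor tyrosine kinase signalling (ENSG00000164056, chromosome 4, 123396795 to 123403760, plus strand, GRCh38), had 6.29 and 5.62 CPM in IRF2BP2 shRNA libraries, against 1.70 and 1.17 CPM in scramble libraries. Both IRF2BP2 shRNA libraries lay far above both scramble libraries, but on few reads, with 201 and 180 counts in IRF2BP2 shRNA libraries and 59 and 36 in scramble libraries. Its log2 fold change was 2.04 (standard error 0.25, edgeR adjusted p = 4.90e-05), and 3.01% of genes tested had a larger change in either direction.

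SPRY2, the Sprouty family member best known for binding CBL and GRB2 (ENSG00000136158, chromosome 13, 80335976 to 80340951, minus strand), had 62.9 and 64.3 CPM in IRF2BP2 shRNA libraries, against 23.7 and 23.2 CPM in scramble libraries. The replicates lay close together and the groups far apart, at 2.71-fold (log2 fold change 1.44, standard error 0.07, edgeR adjusted p = 3.21e-08). SPRY4, which also restrains signalling from FGF and other receptors (ENSG00000187678, chromosome 5, 142310427 to 142326455, minus strand), had 178 CPM in each IRF2BP2 shRNA library, against 114 CPM in each scramble library. Its rise of 0.64 on the log2 scale had a standard error of 0.04 (edgeR adjusted p = 1.56e-07), and it was not called against a change of 1.5-fold (edgeR adjusted p = 0.223). SPRY4-AS1, which overlaps SPRY4 on the opposite strand without sharing exon bases, averaged 18.8 counts against 4711 for SPRY4.

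Per kilobase of exon, SPRY4 was the most abundant of SPRY1, SPRY2 and SPRY4 in both groups and SPRY1 the least. SPRY2 made up 41.9% and 42.6% of their summed level in IRF2BP2 shRNA libraries, against 30.4% and 30.1% in scramble libraries. SPRY4 made up 54.9% and 54.5% in IRF2BP2 shRNA libraries, against 67.9% and 68.7% in scramble libraries, and SPRY1 made up 3.21% and 2.86% in IRF2BP2 shRNA libraries, against 1.67% and 1.17% in scramble libraries. The mix thus moved towards SPRY2 and SPRY1, by more than the replicates differed. With 2 libraries against 2, an exact two-sided permutation test of a share cannot give a p below 0.333.

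The SPRED genes moved little. SPRED1, mutated in Legius syndrome and a partner of neurofibromin (ENSG00000166068, chromosome 15, 38252326 to 38357249, plus strand), had 78.7 and 78.8 CPM in IRF2BP2 shRNA libraries, against 76.2 and 71.5 CPM in scramble libraries. Its log2 fold change, 0.09, was not called (edgeR adjusted p = 0.174), with a 95% interval of -0.02 to 0.20. SPRED2 (ENSG00000198369, chromosome 2, 65310851 to 65432637, minus strand) had 151 and 155 CPM in IRF2BP2 shRNA libraries, against 179 and 166 CPM in scramble libraries.

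Its fall, by 0.17 on the log2 scale, passed the test (standard error 0.04, edgeR adjusted p = 0.00854). It no longer passed when IRF2BP2 shRNA replicate 1 was left out (edgeR adjusted p = 0.0834) or when scramble replicate 1 was left out (edgeR adjusted p = 0.0566). SPRED2 was the more abundant of the pair per kilobase of exon, at 75.5% and 75.9% of their sum in IRF2BP2 shRNA libraries and 79.0% and 78.8% in scramble libraries.

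**Figure D2:**
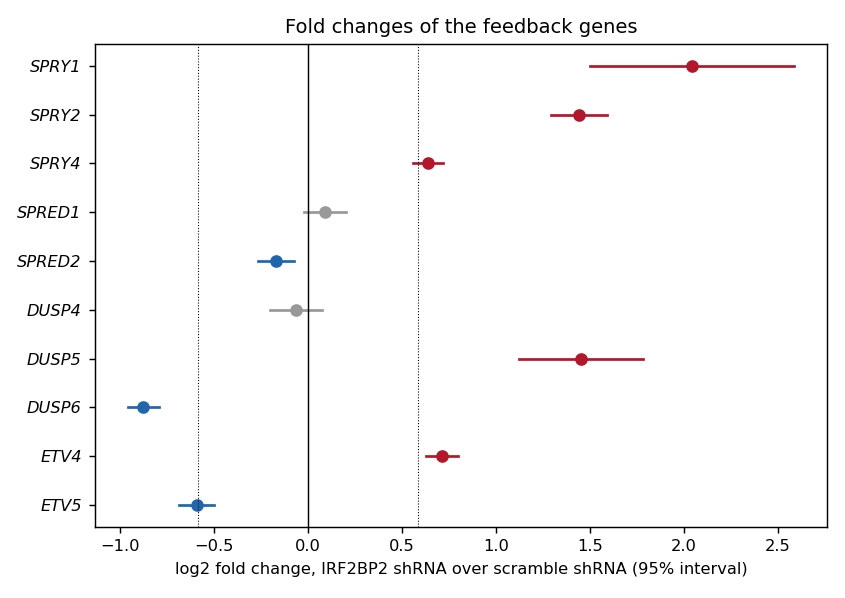
Log2 fold change of each member, IRF2BP2 shRNA over scramble, with its 95% interval from the edgeR fit; red marks members called higher, blue called lower, grey not called, and dotted lines a 1.5-fold change. The intervals of SPRY1, SPRY2, DUSP5 and ETV4 lie wholly above 1.5-fold, that of DUSP6 wholly below its mirror line, and those of SPRED1 and DUSP4 span 0.

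The phosphatase genes went apart. DUSP6, the cytoplasmic phosphatase specific for ERK (ENSG00000139318, chromosome 12, 89347232 to 89353271, minus strand), had 97.3 and 98.9 CPM in IRF2BP2 shRNA libraries, against 179 and 181 CPM in scramble libraries. It fell in both libraries, by 0.88 on the log2 scale (standard error 0.04, edgeR adjusted p = 1.52e-08). An annotated antisense gene, ENSG00000274021, shares 1875 exon bases with DUSP6, and the library kit does not mark strand, so their reads cannot be told apart. It also fell, by 1.06 on the log2 scale (edgeR adjusted p = 0.00545), at a mean of 116 counts against 4513 for DUSP6.

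DUSP5, the nuclear phosphatase specific for ERK (ENSG00000138166, chromosome 10, 110497838 to 110511544, plus strand), had 13.9 and 12.6 CPM in IRF2BP2 shRNA libraries, against 4.50 and 5.18 CPM in scramble libraries. The groups did not overlap and lay 2.74-fold apart (log2 fold change 1.45, standard error 0.15, edgeR adjusted p = 1.44e-05). Its processed pseudogene DUSP5P1, which could take some of its reads, had 56 and 74 counts in IRF2BP2 shRNA libraries and 71 and 49 in scramble libraries, and was not called (edgeR adjusted p = 0.716). DUSP4, a nuclear phosphatase that acts on ERK and other MAP kinases (ENSG00000120875, chromosome 8, 29333064 to 29350668, minus strand), had 121 and 125 CPM in IRF2BP2 shRNA libraries, against 137 and 120 CPM in scramble libraries.

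The DUSP4 groups overlapped, with the scramble libraries on either side of the IRF2BP2 shRNA libraries, and its log2 fold change, -0.06, was not called (edgeR adjusted p = 0.449, 95% interval -0.20 to 0.08). Its sign and its call rested on which scramble library was used. Without scramble replicate 1 it was 0.044 (edgeR adjusted p = 0.502), and without scramble replicate 2 it was -0.15 (edgeR adjusted p = 0.0196). Of the summed level of these phosphatases per kilobase of exon, DUSP6 made up 48.8% and 49.2% in IRF2BP2 shRNA libraries, against 65.3% and 67.8% in scramble libraries. DUSP5 made up 12.3% and 11.1% in IRF2BP2 shRNA libraries, against 2.90% and 3.44% in scramble libraries. DUSP4, whose own level was not called, made up 38.8% and 39.7% in IRF2BP2 shRNA libraries, against 31.8% and 28.7% in scramble libraries. By this measure DUSP6 was the most abundant of the group in all 4 libraries. In CPM, which is not divided by length, DUSP4 lay above DUSP6 in both IRF2BP2 shRNA libraries.

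The PEA3 factors moved in opposite directions. ETV4 (ENSG00000175832, chromosome 17, 43527844 to 43579620, minus strand) had 182 and 185 CPM in IRF2BP2 shRNA libraries, against 110 and 114 CPM in scramble libraries. It rose by 0.71 on the log2 scale in both libraries (standard error 0.04, edgeR adjusted p = 8.87e-08). DHX8, a splicing helicase gene that overlaps ETV4 on the opposite strand and shares 68 exon bases with it, was not called (log2 fold change 0.04, edgeR adjusted p = 0.478).

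ETV5 (ENSG00000244405, chromosome 3, 186046308 to 186110318, minus strand) had 74.1 and 72.5 CPM in IRF2BP2 shRNA libraries, against 112 and 109 CPM in scramble libraries. It fell by 0.59 on the log2 scale (standard error 0.04, edgeR adjusted p = 7.74e-07), a size close to 1.5-fold that was not called against 1.5-fold (edgeR adjusted p = 0.905). ETV5-AS1, on the opposite strand, averaged 9.5 counts against 2981 for ETV5, with no shared exon bases. DGKG, a diacylglycerol kinase gene on the same strand, shares 164 exon bases with ETV5 and also fell (log2 fold change -1.90, edgeR adjusted p = 0.000967), at a mean of 53 counts.

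ETV4 made up 79.8% and 80.4% of the ETV4 and ETV5 level per kilobase in IRF2BP2 shRNA libraries, against 61.4% and 62.5% in scramble libraries. The remaining PEA3 gene, ETV1, had 93.0 and 93.5 CPM in IRF2BP2 shRNA libraries and 106 and 100 CPM in scramble libraries and fell by 0.15 on the log2 scale (edgeR adjusted p = 0.0186).

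**Figure D3:**
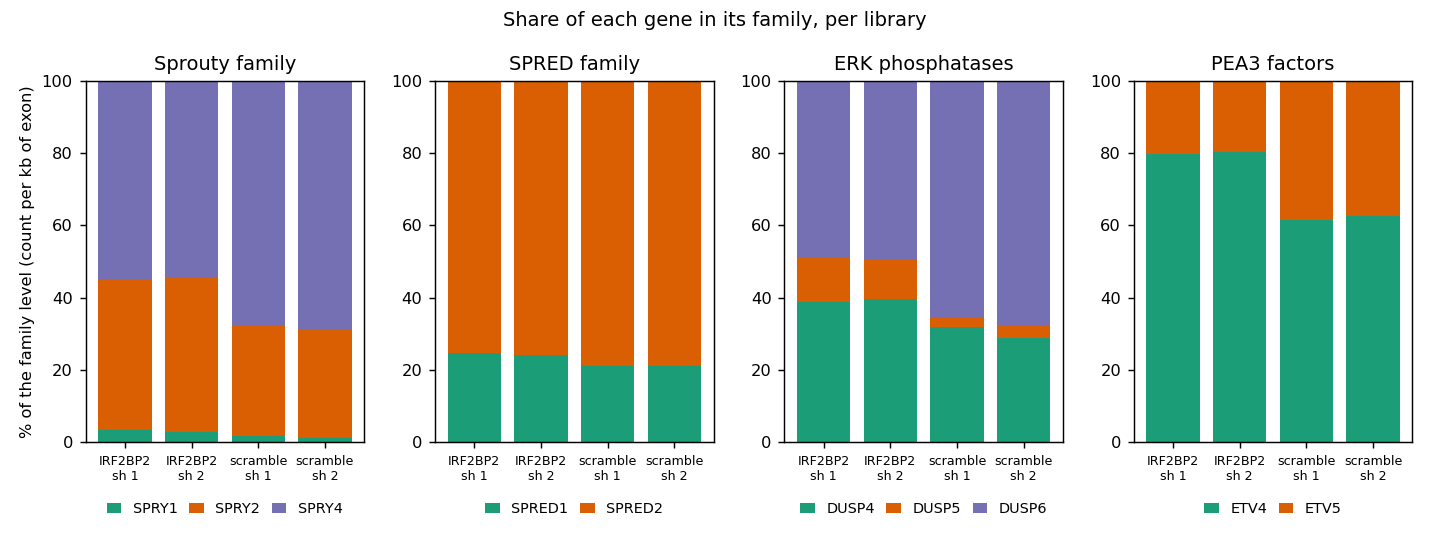
Share of each gene in the summed level of its family (count per kilobase of merged exons, percent) in each library, with IRF2BP2 shRNA libraries left of scramble libraries. SPRY1, SPRY2, SPRED1, DUSP4, DUSP5 and ETV4 take a larger share and SPRY4, SPRED2, DUSP6 and ETV5 a smaller one in both IRF2BP2 shRNA libraries.

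Set side by side per kilobase of exon, the order of the 10 transcripts differed between the groups. In IRF2BP2 shRNA libraries ETV4 led at 50.4 and 51.4 CPM per kilobase, followed by SPRED2 (29.3 and 30.1 CPM per kilobase), SPRY4 (27.1 in each), DUSP6 (21.0 and 21.4), SPRY2 (20.7 and 21.2), DUSP4 (16.7 and 17.2), ETV5 (12.8 and 12.5), SPRED1 (9.53 and 9.54), DUSP5 (5.30 and 4.83) and SPRY1 (1.59 and 1.42). DUSP6 and SPRY2 overlapped there. In scramble libraries DUSP6 led at 38.7 and 39.1 CPM per kilobase, followed by SPRED2 (34.6 and 32.3 CPM per kilobase), ETV4 (30.6 and 31.5), ETV5 (19.2 and 18.9), DUSP4 (18.9 and 16.5), SPRY4 (17.4 in each), SPRED1 (9.22 and 8.66), SPRY2 (7.80 and 7.62), DUSP5 (1.72 and 1.98) and SPRY1 (0.43 and 0.30). SPRY4 lay within the range of DUSP4 there, the lower ETV5 and the higher DUSP4 value met at 18.9, and the other neighbours did not overlap. SPRY2 thus stood beside SPRED1 in scramble cells and beside DUSP6 in IRF2BP2 shRNA cells.

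Genes with profiles most like the members at the extremes were taken by the root mean square difference of centred log2 CPM over the 4 libraries. For SPRY1 they were MCHR1 (0.08), NUAK1 (0.09) and LONRF2 (0.10). For DUSP6 they were SRSF8, TFAP2B and FZD7, each at a difference of 0.02 on the log2 scale. FZD7, a WNT receptor gene, had 44.0 and 45.4 CPM in IRF2BP2 shRNA libraries and 80.1 and 80.9 CPM in scramble libraries. With 4 libraries in 2 groups this likeness reflects mainly the size of the group difference.

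The remaining ERK pathway genes were read from lists, with the same fit and no test of the lists. Of all genes tested, 20.6% were called higher and 21.4% lower, the shares beside which each list's counts stand. Among the 11 tested genes of RAS, RAF, KSR, MEK and ERK, 5 rose and 0 fell (median log2 fold change 0.11), and 6 were not called, a share called close to the 42% of all genes. The count of rises was 2 without IRF2BP2 shRNA replicate 2, 3 without IRF2BP2 shRNA replicate 1 or scramble replicate 1, and 3 with DESeq2 or without robust estimation. Requiring a mean of 10 CPM gave 3 higher and 1 lower. ARAF, a kinase that acts on MEK, averaged 50.9 ± 1.72 CPM in IRF2BP2 shRNA libraries and 40.4 ± 0.011 CPM in scramble libraries (SD, n = 2 each), a rise of 0.34 on the log2 scale (edgeR adjusted p = 0.00163). MAP2K2, a MEK gene, rose by 0.11 (edgeR adjusted p = 0.0449). None of the cascade genes passed against a change of 1.5-fold.

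Among 11 receptor adaptor genes, 2 rose, 5 fell and 4 were not called. DESeq2, no filter on low counts, a mean of 10 CPM and no robust estimation each gave 1 higher and 4 lower. The counts also differed on leaving out IRF2BP2 shRNA replicate 1 or scramble replicate 2. SHC1, which links receptors to GRB2, averaged 182 ± 5.47 CPM in IRF2BP2 shRNA libraries and 325 ± 3.39 CPM in scramble libraries. The docking protein gene GAB2 fell by 0.55 and the RAS exchange factor gene SOS1 by 0.30 on the log2 scale, while PTPN11, the SHP2 phosphatase gene, rose by 0.18. Of 7 RAS GTPase activators tested, DAB2IP rose (log2 fold change 0.38), RASA2 fell (-0.51) and 5 were not called. The count was 2 lower without IRF2BP2 shRNA replicate 1 and 2 higher without scramble replicate 1. NF1, whose product SPRED proteins recruit, was among those not called (log2 fold change 0.03, edgeR adjusted p = 0.807). NF1 was named after its value was seen.

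The other MAP kinase phosphatases were split, since 3 of 7 rose, 1 fell and 3 did not pass. With a mean of 10 CPM required, 1 was higher and 0 were lower. DUSP2 averaged 4.30 ± 0.195 CPM in IRF2BP2 shRNA libraries and 0.70 ± 0.26 CPM in scramble libraries. DUSP8, which prefers JNK and p38, rose by 1.42 and DUSP1, an immediate early phosphatase gene, by 0.55 on the log2 scale, and DUSP9 fell by 1.11. The other feedback inhibitors were lower or not called, with 0 of 7 higher, 4 lower and 3 not called. Over all genes tested, 20.6% were called higher and 21.4% lower. IL17RD, also called SEF, an FGF pathway inhibitor, averaged 33.2 ± 2.62 CPM in IRF2BP2 shRNA libraries and 98.1 ± 0.48 CPM in scramble libraries. LRIG1, a negative regulator of ERBB receptors, averaged 11.3 ± 0.72 CPM in IRF2BP2 shRNA libraries and 43.4 ± 2.01 CPM in scramble libraries. SPRED3, at 0.41 ± 0.22 CPM in IRF2BP2 shRNA libraries and 1.16 ± 0.38 CPM in scramble libraries (edgeR adjusted p = 0.0291), and LRIG3, which fell by 0.23 on the log2 scale (edgeR adjusted p = 0.0482), were the others, and 2 genes of this list were called lower instead of 4 without IRF2BP2 shRNA replicate 2, without scramble replicate 2, with DESeq2, with no filter on low counts and with a replicate block.

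Other genes that report ERK output were mostly higher, with 9 of 12 tested higher, 2 lower and 1 not called (median log2 fold change 1.02). Of all genes tested, 20.6% were called higher. Requiring a mean of 10 CPM gave 4 higher, as FOS, FOSL1, EPHA4, IER3 and PLAUR lay below that level. DESeq2 gave 7 higher. CCND1, the cyclin D1 gene, averaged 1257 ± 12.2 CPM in IRF2BP2 shRNA libraries and 563 ± 7.69 CPM in scramble libraries. EGR1, an immediate early zinc finger gene, rose by 2.01, the receptor gene EPHA2 by 1.35 and the adaptor gene SH2B3 by 0.88 on the log2 scale. PHLDA1 and ETV1 were the 2 that fell, named for that reason, and PHLDA1 fell by 0.46. The count of falls was 1 when IRF2BP2 shRNA replicate 1, IRF2BP2 shRNA replicate 2 or scramble replicate 1 was left out. MYC had at most 13 counts in a library and was not tested.

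Of 10 ETS factor and CIC complex genes, 5 rose, 3 fell and 2 were not called, where 42% of all genes tested were called. ETS1 averaged 85.4 ± 3.24 CPM in IRF2BP2 shRNA libraries and 197 ± 1.02 CPM in scramble libraries, and ETS2 fell by 0.95 on the log2 scale. ERF, an ETS repressor that ERK exports from the nucleus, rose by 0.93, and ELK3 by 0.46. CIC, named after its value was seen because its octamer was searched above, rose by 0.34 (edgeR adjusted p = 0.000477). Of 8 genes listed as ERK-activated kinases, a label not tested for any of them here, 2 rose, 4 fell and 2 were not called. RPS6KA6, which encodes RSK4, averaged 53.4 ± 4.34 CPM in IRF2BP2 shRNA libraries and 183 ± 2.15 CPM in scramble libraries. RPS6KA2 fell by 1.04 and RPS6KA5 by 0.90 on the log2 scale, and RPS6KA3 rose by 0.28.

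**Figure D4:**
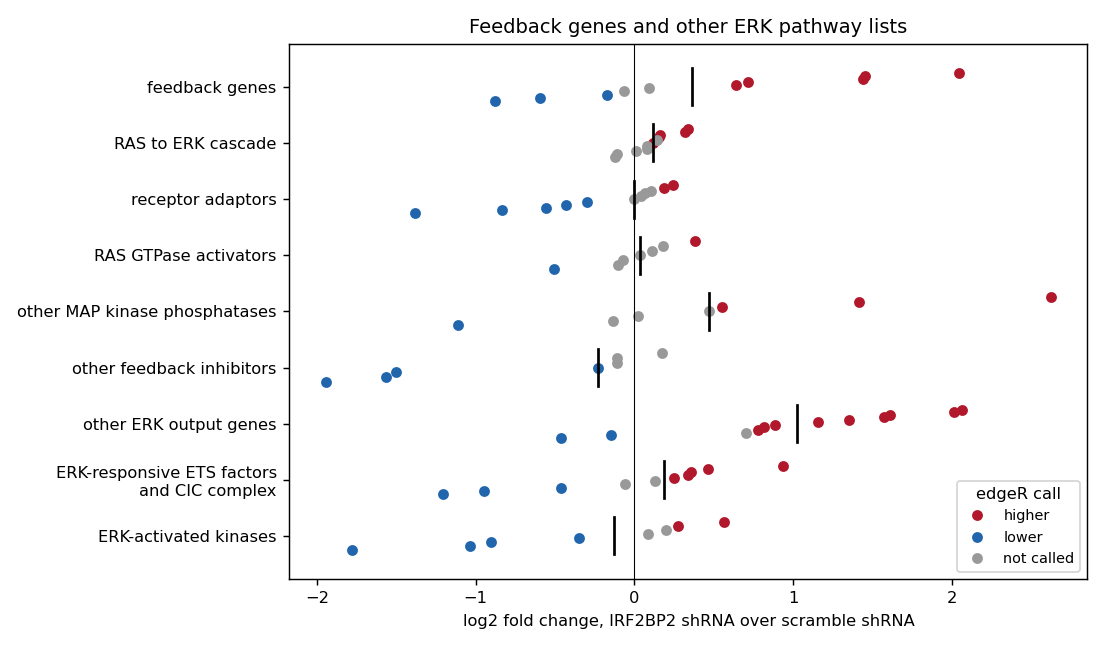
Log2 fold change (IRF2BP2 shRNA over scramble) of every tested gene in the members' list and in 8 other ERK pathway lists, coloured by edgeR call, with a black bar at each list's median. The members and the other phosphatases spread to both sides of 0. The other ERK output genes have a median of 1.02 and also reach below 0, with PHLDA1 and ETV1 called lower. The kinase cascade stays within 0.34 of 0.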

How the data were processed

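The data are RNA sequencing of 4 SK-N-BE(2) libraries. Per the labels' protocols, they were prepared from TRIzol-extracted RNA with an Illumina TruSeq kit without strand marking. The deposited table holds the authors' raw counts per gene, with no pooling. Reads were aligned with HISAT2 2.2.0 to hg38, per the submitters' processing notes; which counter and annotation gave the counts is not given in the sources used here. Its columns named NC were taken as scramble, the only group left besides IRF2BP2. Replicates differed by more than sampling noise (chi-square per degree of freedom 5.26 for the IRF2BP2 shRNA pair and 7.01 for the scramble pair).

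The main test was run in edgeR 4.0.16 (R 4.3.3): filterByExpr by group, TMM scaling, and a two-sided quasi-likelihood F-test with robust estimation, adjusted over all 19093 genes tested (Benjamini-Hochberg, threshold 0.05). Standard errors were derived from the log2 fold change and its F statistic. The test against 1.5-fold used glmTreat and was added after the data were seen. The procedure was tested on simulated data. Symbols came from a table of gene names, and coordinates and exon lengths from GENCODE 29 (GRCh38). CPM per kilobase divides CPM by merged exon length.

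The members and lists were chosen with earlier results of these data known. All members, IRF2BP2, up to 4 called genes per list with the smallest p, overlapping or like-named genes, and the 3 protein-coding genes of at least 5 CPM nearest in profile to the largest rise and fall were named. Partners at very low counts are not all named. Some genes that this rule took are left out of the text and are not reported here.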

Additional observations from a re-analysis of the deposited data

How the results depend on the processing

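Of the fold changes of the 10 members and IRF2BP2 under the planned settings, 115 kept their direction and side of the threshold, and the exceptions were SPRED2 and DUSP4, each on leaving out 1 library. DUSP4 reversed to 0.044 (edgeR adjusted p = 0.502) without scramble replicate 1 and was -0.15 (edgeR adjusted p = 0.0196) without scramble replicate 2. In each such fit the lone library of a group is assumed to vary like the other pair. SPRY2 ranged from 1.40 to 1.47 and DUSP6 from -0.92 to -0.86 on the log2 scale. SPRY1, on 36 to 201 counts, ranged from 1.81 to 2.35. With a mean of at least 10 CPM required, SPRY1 and DUSP5 left the table, so 3 members were called higher, and 17 genes of the pathway lists were higher instead of 27. Leaving out 1 library gave between 6412 and 7478 genes called, 5 members higher, and 2 to 4 lower. DESeq2 1.42.0 called 6471 genes and the same number of members in each direction, 5 and 3.

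Tested against 1.5-fold, 1619 genes were called instead of 8016, 1 member was lower, and 9 genes of the pathway lists were higher and 9 lower, instead of 27 and 20. A replicate block gave 7900 genes called and left the members at 5 higher and 3 lower. Same-numbered libraries deviated together with a correlation of 0.06, so the numbers were not read as pairs. Counts not divided by length put SPRY2 at 25.7% of the Sprouty sum in IRF2BP2 shRNA and 16.8% in scramble libraries, and DUSP6 at 41.8% of the phosphatase sum in IRF2BP2 shRNA and 57.5% in scramble libraries. Per length, SPRY2 had 42.3% in IRF2BP2 shRNA and 30.3% in scramble libraries, and DUSP6 had 49.0% in IRF2BP2 shRNA and 66.6% in scramble libraries.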
